A study of Homo sapiens with 12 samples.

Results

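GAS6 is the secreted growth arrest-specific ligand of the TAM receptors, and GAS6-AS1 is a long noncoding RNA transcribed from the opposite strand of the same locus. The TAM receptors are the tyrosine kinases TYRO3, AXL and MERTK, and PROS1 (protein S) is their other vitamin K-dependent ligand. These 6 genes were followed by symbol through the raw count tables, and all 6 were found among 56832 symbols. GAS6-AS1 had been picked because it was high in 1 of the 4 groups, receptor-carrying cells given hormone. Its values there are given as a description with no test.

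Both ligands carry a Gla domain, in which glutamates carboxylated with the help of vitamin K bind calcium and then phosphatidylserine on membranes. Bound ligand brings receptor molecules together, and the kinases signal through PI3K and AKT and, in phagocytes, drive the engulfment of dying cells. GAS6 binds all the TAM receptors, AXL with the highest affinity, whereas PROS1 acts on TYRO3 and MERTK. AXL is widely studied in carcinomas, where high levels go with invasion and drug resistance, and the ectodomains of AXL and MERTK are shed by the proteases ADAM10 and ADAM17.

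RNA was sequenced from SW1736, an established line of anaplastic thyroid cancer, in 12 libraries. The cells carried the vector pCDH-TRB for thyroid hormone receptor beta (TRB) or the empty vector (EV), and every culture was first kept 24 h without hormone in charcoal-stripped serum. Cells then received 10 nM triiodothyronine (T3, the active thyroid hormone) or sodium hydroxide vehicle for 24 h, which gave 4 groups of 3 libraries, here called EV-vehicle, EV-T3, TRB-vehicle and TRB-T3. The labels describe stable expression and do not say whether the line is 1 clone, or whether libraries of a group came from separate cultures, so p-values measure the spread between these libraries.

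Counts within genes ranged from 3819306 to 13086717 per library. THRB, the gene of the supplied receptor, stood at 12.3 to 18.3 counts per 1000000 (CPM, after scaling of libraries) in the 6 EV libraries. It stood at 79.8 to 80.4 in TRB-vehicle and 190.3 to 321.9 in TRB-T3, so THRB was itself higher with T3 in TRB cells. Its counts do not separate the supplied transcript from that of the cells' own gene. The part of this rise in the results of TRB-T3 was not tested. In such bulk RNA, fewer cells with a transcript and less of it per cell cannot be told apart. TRB-T3 replicate 2 stood apart from all others by a trend with gene GC content, so results are given for all 12 libraries and also for the 11 without it. All 5 epithelial markers were present, with a summed level of 2028 to 5013 CPM over the libraries. Thyroid markers were nearly absent: TSHR and FOXE1 had no count, and the summed level of the 7 markers was 1.08 to 10.9 CPM. Of markers of cells in which TAM receptors are best known, CD163 and TYROBP (macrophages) and CDH5 (endothelium) had no count in any library. PTPRC, CSF1R, FCER1G, PECAM1, VWF and TEK of the same lists had at most 3 counts per library. CD14 went the other way, with 123 and 78 counts in TRB-T3 replicates 1 and 3 and at most 9 in any other library.

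GAS6 lies on the minus strand at chr13:113820549-113864067 (GRCh38, GENCODE release 29) and GAS6-AS1 on the plus strand at chr13:113815630-113845744. The antisense gene begins 48437 bases from the GAS6 transcription start, past the GAS6 3′ end, and reads back through the GAS6 introns. Exon to exon the genes share 421 bases, which is 7.0% of the exon bases of GAS6 and 5.9% of those of GAS6-AS1. The overlap bears on how far reads can be assigned, and the antisense exons that lie across GAS6 coding sequence are therefore shown, with the bases opposite GAS6 coding sequence in capitals. Exon 3 (187 bases, chr13:113834578-113834764, 95 bases opposite coding sequence) and exon 4 (171 bases, chr13:113838077-113838247, 115 opposite) run 5′ to 3′ on the antisense strand as follows.
GAS6-AS1 exon 3: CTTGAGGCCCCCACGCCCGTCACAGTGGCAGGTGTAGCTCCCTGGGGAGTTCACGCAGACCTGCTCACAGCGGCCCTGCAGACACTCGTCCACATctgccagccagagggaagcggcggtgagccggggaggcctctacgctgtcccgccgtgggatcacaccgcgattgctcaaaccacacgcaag
GAS6-AS1 exon 4: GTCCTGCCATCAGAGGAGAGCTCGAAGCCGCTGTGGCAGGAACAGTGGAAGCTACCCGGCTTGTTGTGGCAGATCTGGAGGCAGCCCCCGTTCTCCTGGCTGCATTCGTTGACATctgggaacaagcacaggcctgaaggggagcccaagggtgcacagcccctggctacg
Exon 5, with 6661 bases the longest, has 123 bases opposite GAS6 coding sequence, and exon 2 lies wholly inside a GAS6 exon.

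**Figure D1:**
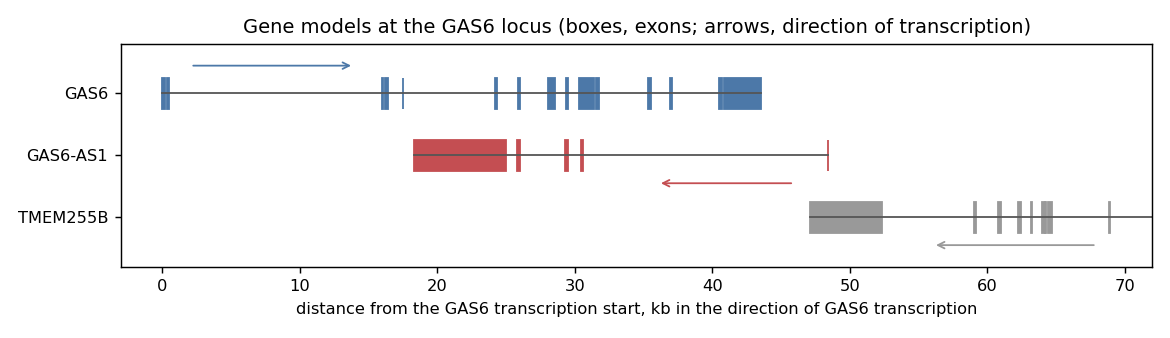
Exons (boxes) of GAS6, GAS6-AS1 and TMEM255B by distance from the GAS6 transcription start in kb, with arrows for the direction of transcription; TMEM255B runs on past the right edge. The genes GAS6 and GAS6-AS1 share 421 exon bases, and the start of GAS6-AS1 lies 48437 bases from that of GAS6.

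Whether the counting used strand is not given in the sources used here, so its effect was measured on other genes. Of 75 genes whose exons lie wholly inside an exon of a gene on the opposite strand with at least 1000 counts, 44 (58.7%) had counts of their own. Of 313 genes placed in the same way on the same strand, 0 had any. A count that ignored strand would have treated both kinds of gene alike. The counts of GAS6 and GAS6-AS1 are therefore given separately, with the limits that this was measured at other loci and under an assumed annotation.

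GAS6 was nearly silent in 3 of the 4 groups. It had 0, 1 and 0 counts in EV-vehicle, 0, 0 and 1 in EV-T3, and 0, 1 and 2 in TRB-vehicle. In TRB-T3 it had 75, 1 and 47 counts, or 5.63, 0.180 and 5.87 CPM in replicates 1, 2 and 3. Replicates 1 and 3 lay far above every other library, and replicate 2 lay within the range of EV-T3, whose highest library stood at 0.253 CPM. Replicate 2 had 1 count where the highest TRB-vehicle library had 2, and it lay above that library only after scaling for depth (0.180 against 0.168 CPM).

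Pooled over the libraries of a group, GAS6 was 50.9-fold higher with T3 than with vehicle in TRB cells (95% counting interval 17.0 to 250) and 63.6-fold higher (21.3 to 313) without replicate 2. These intervals, like all floors given here, cover counting error only. GAS6 did not pass the count filter with 12 libraries, and an exact two-sided permutation test over the 6 libraries gave p = 0.1, the smallest that 3 against 3 can give. With 11 libraries it passed the filter only through TRB-T3, the group where it is high, so the fitted log2 difference of 5.85 (SE 0.492) is given without a test. Against EV-T3 the exact permutation p was 0.2 with 12 libraries, and the pooled ratio was 91.0 against a single EV count (interval 16.0 to 3623). The T3 effect in TRB cells minus that in EV cells was 5.47 (SE 2.50) in the same fit, also given without a test.

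GAS6-AS1 had 0, 0 and 4 counts in EV-vehicle, no count in EV-T3, and 0, 1 and 3 in TRB-vehicle. In TRB-T3 it had 631, 45 and 380 counts, or 47.4, 8.10 and 47.5 CPM. The lowest of these libraries was far above the highest of the other 9, which stood at 0.368 CPM. This is the contrast it was chosen on, so the pooled ratio of 327.5 for T3 against vehicle in TRB cells (counting interval 127.5 to 1204, and 395 without replicate 2) is a description. Against EV-T3, where 0 counts over the group allow up to 0.151 CPM (3 counts), it was at least 260.4-fold higher in TRB-T3, with error allowed in the EV-T3 count only (95% lower limit of the ratio with error in both, 211.4). GAS6-AS1 passed the count filter only through TRB-T3, and the comparisons without that group rest on 0 to 4 counts per library. A test on so few counts could hardly pass, so the fitted log2 differences are given without one. They were -3.50 (SE 2.96) for T3 in EV cells and -0.24 (SE 1.7) for TRB against EV in vehicle.

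Where the locus was read, the antisense RNA made up most of its counts. GAS6 was 10.6% of the counts of both genes in TRB-T3 replicate 1 (exact Clopper-Pearson 95% interval 8.45 to 13.1%), 2.17% in replicate 2 (0.0550 to 11.5%) and 11% in replicate 3 (8.20 to 14.4%). The share in replicate 2 rests on 1 GAS6 read of 46. Per kilobase of exon GAS6-AS1 stood at 4.79 ± 3.17 CPM (SD, n = 3) and GAS6 at 0.648 ± 0.536 in this group. In the other groups each lay at or below 0.0171 CPM per kilobase on average.

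The low GAS6 count in replicate 2 was set against genes of like GC content, since that library departs from replicates 1 and 3 by GC. Log2 CPM here carries a prior count of 2. GAS6 had 1 count in replicate 2 (0.180 CPM, against 5.63 and 5.87), so the prior makes its difference smaller than these CPM give. Its drop is thus understated beside genes with more counts. GAS6 has a GC content of 61.8%, and its log2 CPM in replicate 2 minus the mean of replicates 1 and 3 was -3.89. For the 1223 tested genes within 2 percentage points of that GC content the median was -2.90, with quartiles of -3.56 and -2.22. GAS6-AS1, at 58.3% GC, lay at -2.52 against a median of -2.16 for genes like it. PROS1, at 40.5% GC, was 1.56 higher in replicate 2, and the genes like it were higher too, with a median of 1.19. AXL lay at -0.15, against a median of -1.18 for genes of its GC content, and TYRO3 at -1.72 against -1.02. Of the genes of like GC content 86.6% were lower than AXL, 78.4% lower than PROS1, 22.6% lower than TYRO3 and 15.7% lower than GAS6. GAS6 and TYRO3 thus lay below the quartiles of such genes. AXL lay above them, as did PROS1 by little (upper quartile 1.51).

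**Figure D2:**
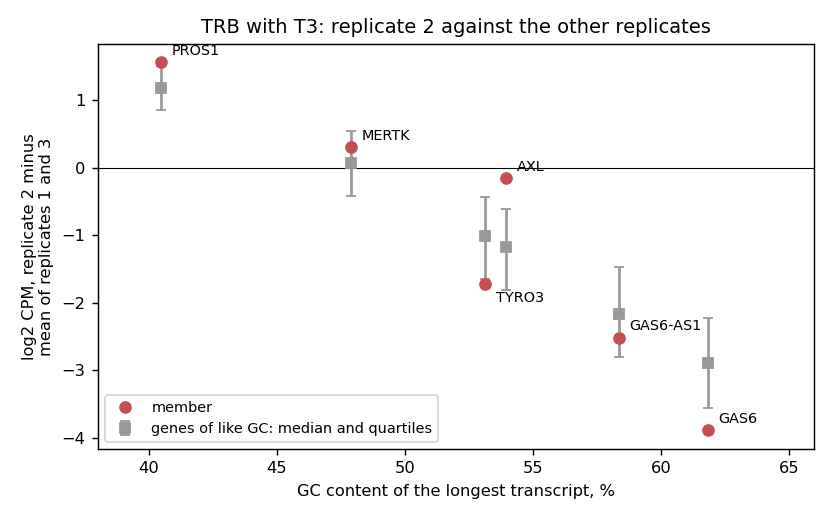
Log2 CPM of TRB-T3 replicate 2 minus the mean of replicates 1 and 3 for each gene (red), by GC content of its longest transcript in percent, beside the median and quartiles of tested genes within 2 percentage points (grey). GAS6 at 61.8% GC sits at -3.89 and PROS1 at 40.5% GC at 1.56. Log2 CPM carries a prior count of 2, and GAS6 had 1 count in replicate 2.

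Within 500 kb, 18 other genes had a symbol in the files and 10 of these passed the count filter. TMEM255B, within whose span the first exon of GAS6-AS1 lies, had 0 to 3 counts in every library, and GAS6-AS2, on the far side of the GAS6 start, had 0 to 2. Of the 10 tested neighbours 1 fell and 0 rose with T3 in TRB cells, where 14.7% of all tested genes passed, and the median log2 difference of the 10 was -0.07. The gene that fell was RASA3, a GTPase-activating protein that switches off RAS and RAP proteins. It stood at 54.6, 57.0 and 59.2 CPM with vehicle and at 39.3, 17.6 and 31.7 with T3 (log2 difference -0.94, SE 0.248, edgeR adjusted p 0.0277). When each library was left out in turn, RASA3 passed in 2 of 12 fits, those without TRB-T3 replicate 1 or 2, with adjusted p up to 0.110 in the others. Without replicate 2 its difference was -0.63 (edgeR adjusted p 0.00152), and LAMP1, a lysosomal membrane protein, was higher in that fit (0.33, adjusted p 0.0210).

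PROS1 (chr3:93873033-93980003) was the most abundant member per kilobase in every group. Its level was 62.8, 74.8 and 63.5 CPM in the EV-vehicle libraries, 62.2, 64.1 and 36.7 in EV-T3, 55, 59.7 and 57.0 in TRB-vehicle, and 53.7, 156.5 and 52.1 in TRB-T3. Apart from EV-T3 replicate 3, which was low, and TRB-T3 replicate 2, which was high, its libraries lay between 52.1 and 74.8 CPM. In vehicle all TRB libraries lay below all EV libraries, as 36.3% of tested genes did not overlap there, but the difference of -0.23 did not pass (SE 0.391, edgeR adjusted p 1.000). The log2 difference for T3 in TRB cells was 0.61 (SE 0.392, edgeR adjusted p 0.309) with 12 libraries and -0.07 (SE 0.191, adjusted p 0.826) with 11, so its sign depended on 1 library. In EV cells the difference was -0.30 (SE 0.392, edgeR adjusted p 0.940). Per kilobase PROS1 stood at 10.5 ± 0.436 CPM (SD, n = 3) in TRB-vehicle, where GAS6 stood at 0.0141.

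**Figure D3:**
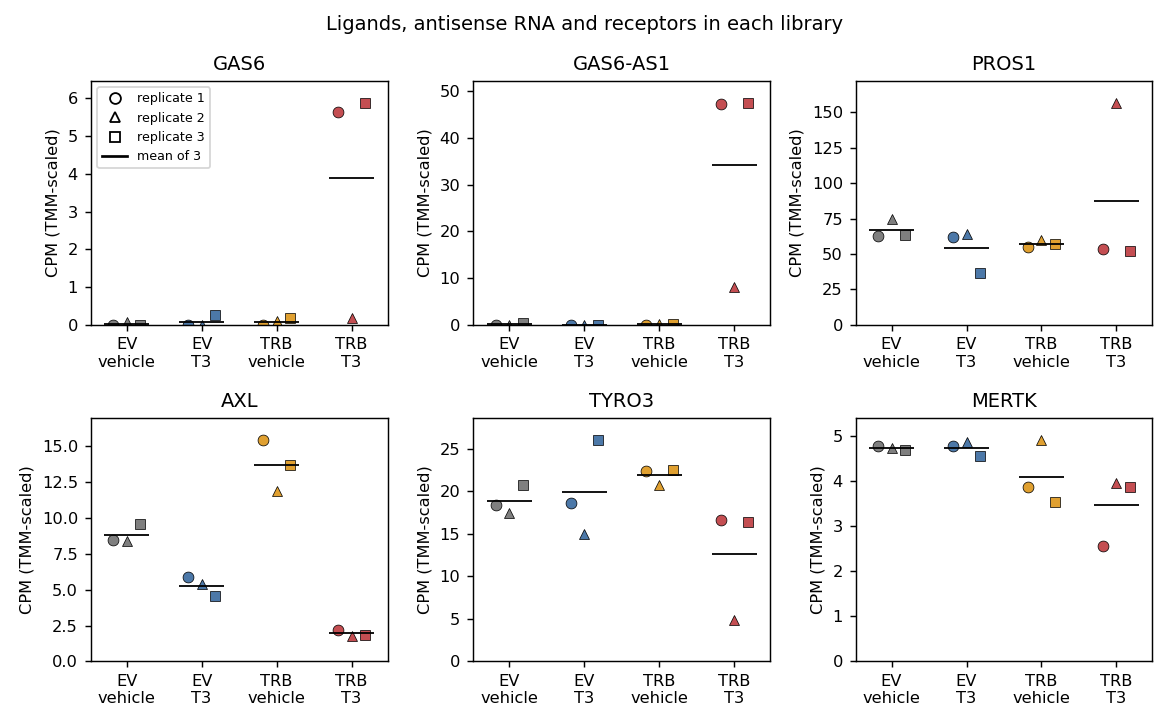
CPM after scaling of libraries for the 6 genes in each library (points, shaped by replicate) and the mean of each group (bar), on linear axes that start at 0. GAS6 and GAS6-AS1 rise off the axis only in TRB-T3, and the 4 groups of AXL occupy separate ranges from 11.9 to 15.4 CPM in TRB-vehicle down to 1.80 to 2.18 in TRB-T3.

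AXL (chr19:41219203-41261766), the receptor with the highest affinity for GAS6, had its lowest group mean in TRB-T3, where that of GAS6 was highest. This did not hold by library, as TRB-T3 replicate 2 had the lowest AXL (1.80 CPM) and 1 GAS6 count. EV cells had 8.47, 8.42 and 9.56 CPM of AXL with vehicle and 5.86, 5.39 and 4.56 with T3. TRB cells had 15.4, 11.9 and 13.7 CPM with vehicle and 2.18, 1.80 and 1.87 with T3. The order TRB-vehicle, EV-vehicle, EV-T3, TRB-T3 held without any overlap between groups, as it did for 61 of 14431 tested genes (0.423%); 1.4% had 4 separate groups in any order.

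In TRB cells with T3 the log2 level of AXL fell by 2.79 (SE 0.201, adjusted p 1.3e-05 in edgeR). Of AXL, TYRO3, MERTK and PROS1, only AXL passed, where 14.7% of all tested genes passed and 6.2% were lower. Without TRB-T3 replicate 2 the difference was -2.68 (SE 0.197, edgeR adjusted p 5.01e-07), where 33.3% of genes passed. Over 20 alternatives it lay between -2.87 and -2.59, and AXL passed in each. In EV cells the T3 libraries of AXL lay below the vehicle libraries, as 26.9% of tested genes did not overlap in that comparison. The difference of -0.73 (SE 0.189) did not pass with 12 libraries (edgeR adjusted p 0.257), where 0.229% of genes passed. It passed with 11 libraries (-0.72, SE 0.167, edgeR adjusted p 0.0261), where 7.33% of genes did, and with GC offsets on 12 libraries (-0.87, adjusted p 0.0361), but in none of the other 11 fits that left out 1 library.

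The T3 effects on AXL in TRB and in EV cells share no library, and their difference was -2.05 (SE 0.273, edgeR adjusted p 0.00346). Of all tested genes 2.59% passed this test. With 11 libraries it was -1.96 (SE 0.264, edgeR adjusted p 0.000415), where 15.2% passed. Under T3 the difference of TRB from EV cells was -1.42 (SE 0.205, edgeR adjusted p 0.00247), where 6.68% of genes passed, and -1.32 with 11 libraries (adjusted p 0.00112), where 19.7% did. It shares the TRB-T3 libraries with the T3 effect in TRB cells. This call was lost when only those 2 groups were fitted (-1.41, edgeR adjusted p 0.13). In vehicle AXL was higher in TRB than in EV cells in all 3 libraries (0.63, SE 0.180), and 36.3% of tested genes did not overlap there. That difference did not pass with 12 libraries (edgeR adjusted p 1.000), where 0.0208% of genes passed, or with 11 (0.64, adjusted p 0.185), where 0.0742% did. It passed with the 2 vehicle groups alone (0.65, adjusted p 0.0223).

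**Figure D4:**
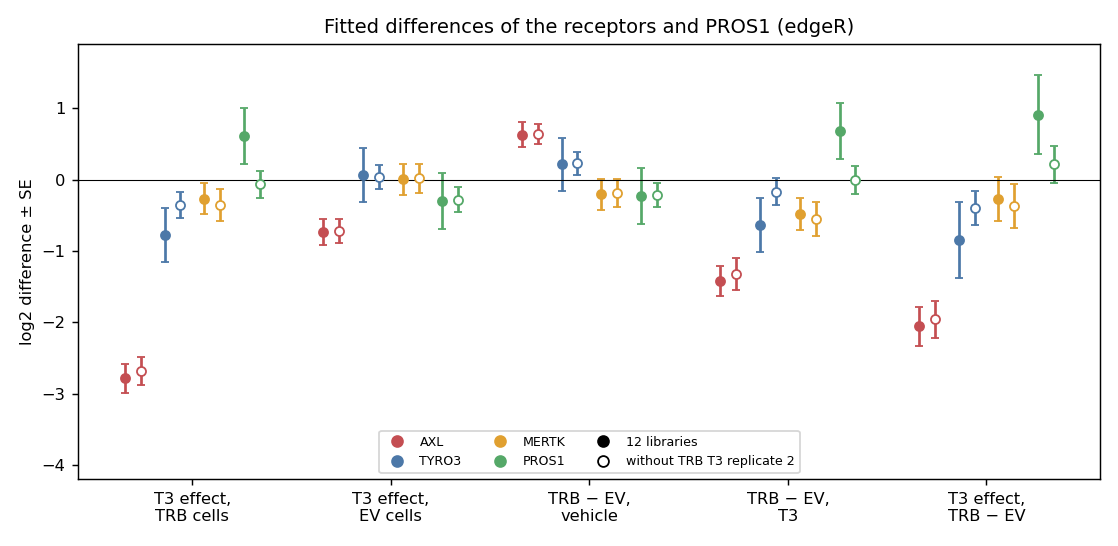
Fitted log2 differences with standard errors for AXL, TYRO3, MERTK and PROS1 in 5 comparisons, with all 12 libraries (filled) and without TRB-T3 replicate 2 (open). AXL lies at -2.79 and -2.68 for T3 in TRB cells, and PROS1 shifts from 0.61 to -0.07 when that library is left out.

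The promoters of GAS6 and of AXL, its receptor of highest affinity, are shown for their sequence features. Each window runs from 250 bases before to 50 after the start in RefSeq (GRCh38.p14), 5′ to 3′ on the gene's strand, with GC boxes (GGGCGG on either strand) in capitals. The windows are chr13:113864027-113864326 on the minus strand for GAS6 and chr19:41218973-41219272 on the plus strand for AXL.
GAS6 promoter: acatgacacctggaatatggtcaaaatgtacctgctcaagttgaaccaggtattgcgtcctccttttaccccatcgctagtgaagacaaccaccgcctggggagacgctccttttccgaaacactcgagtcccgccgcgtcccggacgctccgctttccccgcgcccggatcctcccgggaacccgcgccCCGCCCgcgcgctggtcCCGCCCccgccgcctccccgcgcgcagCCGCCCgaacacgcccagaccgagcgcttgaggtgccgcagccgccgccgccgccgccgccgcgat
AXL promoter: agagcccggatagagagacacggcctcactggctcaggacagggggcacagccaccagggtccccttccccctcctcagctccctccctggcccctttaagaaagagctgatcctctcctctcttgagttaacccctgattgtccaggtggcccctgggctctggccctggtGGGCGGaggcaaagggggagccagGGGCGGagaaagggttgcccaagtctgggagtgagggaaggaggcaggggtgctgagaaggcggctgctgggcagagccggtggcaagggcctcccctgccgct
The GAS6 window held 3 GC boxes, 42 CpG dinucleotides and 69% GC, and the AXL window held 2 GC boxes, 7 CpG dinucleotides and 66% GC. A second AXL start in RefSeq, at chr19:41226505-41226804, held no GC box. The half-site AGGTCA, bound by thyroid hormone receptors, was searched on both strands and was found in none of the 7 windows of GAS6, AXL, TYRO3, MERTK and PROS1. It is present in 13.8% and GGGCGG in 45% of 35116 RefSeq promoter windows of the same length. Receptors often bind outside such windows, so this says only that these letters are not in them.

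TYRO3 (chr15:41557675-41583586), the TAM receptor best known from brain, had 18.5, 17.4 and 20.8 CPM in EV cells with vehicle and 18.7, 15 and 26.1 with T3. In TRB cells it had 22.4, 20.8 and 22.6 CPM with vehicle and 16.7, 4.86 and 16.4 with T3. All libraries of TRB-T3 were below those of TRB-vehicle, a lack of overlap that 40.8% of tested genes shared in this comparison. The log2 difference of -0.78 (SE 0.379) did not pass (edgeR adjusted p 0.192), nor did -0.36 with 11 libraries (SE 0.179, adjusted p 0.148). It passed once a GC trend was removed from each library, both with 12 (-0.60, edgeR adjusted p 0.0123) and with 11 libraries (-0.48, SE 0.119, adjusted p 0.00256). In the latter fit 55.8% of genes passed. In EV cells TYRO3 differed by 0.07 (SE 0.379, edgeR adjusted p 0.978), and the T3 effects of the cells did not differ beyond error (-0.85, SE 0.535, adjusted p 0.353, and -0.40 with adjusted p 0.297 on 11 libraries).

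MERTK (chr2:111898479-112029561), the receptor best known from phagocytes, rested on 18 to 58 counts per library. Its levels were 4.78, 4.74 and 4.69 CPM in EV-vehicle, 4.78, 4.86 and 4.56 in EV-T3, 3.86, 4.91 and 3.53 in TRB-vehicle, and 2.55, 3.96 and 3.87 in TRB-T3. Every TRB-T3 library was below every EV-T3 library, as 26.3% of tested genes did not overlap between these groups, but the difference of -0.48 did not pass (SE 0.227, edgeR adjusted p 0.211). The T3 difference of MERTK was 0.0042 in EV cells (SE 0.221, edgeR adjusted p 0.997) and -0.27 in TRB cells (SE 0.221, adjusted p 0.421), and neither passed. With 11 libraries these were 0.019 and -0.35 (edgeR adjusted p 0.964 and 0.263), and TRB against EV under T3 gave -0.56 (adjusted p 0.126).

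On the per-kilobase scale AXL made up 38.5% ± 0.627 (SD, n = 3) of the summed TAM receptors in EV-vehicle, 26.9% ± 5.22 in EV-T3, 47.9% ± 3.64 in TRB-vehicle and 17.3% ± 3.91 in TRB-T3. The AXL and TYRO3 levels in EV-vehicle lay within their spread (1.71 and 1.72 CPM per kilobase). Lengths here are the union of all annotated exons of a gene, 10945 bases for TYRO3 and 5154 for AXL. The order of these receptors in the vehicle groups rests on them. In CPM TYRO3 lay above AXL in TRB-vehicle (20.8 to 22.6 against 11.9 to 15.4) and in EV-vehicle (means 18.9 and 8.82). Per kilobase AXL was the leading receptor in TRB-vehicle, at 2.65 ± 0.345 CPM against 2.0 ± 0.0904 for TYRO3. In TRB-T3 it was the last, at 0.378 ± 0.0388 against 0.736 ± 0.168 for MERTK and 1.15 ± 0.615 for TYRO3. TYRO3 led in replicates 1 and 3 of that group with 61.2% and 55.7% of the sum, and MERTK led in replicate 2 with 51.5%. In CPM TYRO3 led in replicate 2 as well, at 4.86 against 3.96 for MERTK. Reads of GAS6 outnumbered those of AXL in replicates 1 and 3 of TRB-T3 and in no other library, with 2.59 and 3.13 GAS6 counts per AXL count, against 0.1 in replicate 2 and at most 0.0556 in the other groups.

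Genes around the receptors were examined through 8 lists that together hold 68 genes, of which 53 passed the count filter. With T3 in TRB cells 6 of the 53 rose and 1 fell (13.2%, against 14.7% of all tested genes), and the median log2 difference was 0.15 against 0.01 over all tested genes. With 11 libraries 10 rose and 4 fell (26.4% against 33.3%). The share called was thus close to that of all genes, and the lists are described by their members. The count of 7 was 3 without TRB-vehicle replicate 1, 2 or 3, 4 without EV-vehicle replicate 1, 2 or 3 or EV-T3 replicate 1, and 14 without TRB-T3 replicate 2. When only the compared groups were fitted it was 1, the gene CTGF.

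The list for vitamin K-dependent carboxylation and processing holds enzymes, an inhibitor and substrates of the pathway that modifies GAS6 and PROS1. Of its 8 tested genes 3 rose with T3 in TRB cells and 0 fell, where 14.7% of all tested genes passed, and the 3 were a propeptide protease, an inhibitor and a substrate. FURIN, the protease that removes propeptides, stood at 68.9 ± 2.93 CPM (SD, n = 3) with vehicle and 330.5 ± 256.5 with T3. Its TRB-T3 libraries spanned 35.1 to 496.3 CPM. Its log2 difference was 2.26 (SE 0.681, edgeR adjusted p 0.0485), and 2.84 (SE 0.163, adjusted p 5.8e-08) with 11 libraries, and FURIN missed the threshold in the other 11 fits that left out 1 library and with the compared groups alone. CALU, a calcium-binding inhibitor of the carboxylase in the endoplasmic reticulum, rose by 1.28 (SE 0.287, edgeR adjusted p 0.0127). With 11 libraries its difference was 0.875 (edgeR adjusted p 0.000951). CALU lost its call with the compared groups alone but passed in all 12 fits that left out 1 library. PRRG1, a transmembrane Gla protein, rose by 1.47 (SE 0.424, adjusted p 0.0407 in edgeR) and passed in 5 of them, with 0.86 (adjusted p 0.0192) without TRB-T3 replicate 2. The carboxylase GGCX (-0.02) and the epoxide reductase VKORC1 (-0.20) did not pass (edgeR adjusted p 0.963 and 0.796).

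Of the 4 tested genes for receptor shedding, ADAM10 rose with T3 in TRB cells, from 155.3 ± 16.7 to 475.4 ± 322.8 CPM (log2 difference 1.61, SE 0.403, edgeR adjusted p 0.0218). With 11 libraries its difference was 0.94 (SE 0.207, edgeR adjusted p 0.00362), while it missed the threshold without TRB-vehicle replicate 1, 2 or 3 (up to 0.0808). ADAM17, the other sheddase, differed by 0.59 (SE 0.320, edgeR adjusted p 0.238). The iRhom cofactors RHBDF1 and RHBDF2 did not pass.

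Among the 13 genes for AXL partners and the transcription programme linked to AXL, CTGF rose and ERBB3 fell. CTGF encodes a matricellular protein and is a well-known target of YAP and TEAD factors. It went from 11.7 ± 1.11 to 105.6 ± 23.6 CPM (log2 difference 3.17, SE 0.211, edgeR adjusted p 7.91e-06), and it passed in all 12 fits that left out 1 library. Its T3 effect was larger in TRB than in EV cells by 2.74 (SE 0.288, edgeR adjusted p 0.00134). CTGF was the 1 gene of the 53 with such a call, against 2.59% of all tested genes, and the count was 2 without TRB-T3 replicate 1 or 3 and 11 without replicate 2. CYR61, another target of these factors, differed by -0.35 (SE 0.220, edgeR adjusted p 0.293) with T3 in TRB cells. ERBB3, a receptor of the EGFR family, had a log2 difference of -0.59 (SE 0.145, edgeR adjusted p 0.0209) and passed in 5 of those 12 fits. EGFR and MET, kinases known to pair with AXL, stood at 226.2 and 970.8 CPM with vehicle and 256.8 and 1160 with T3 in TRB cells, and neither passed (edgeR adjusted p 0.367 and 0.479).

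Of the 10 tested signal transducers and outputs RANBP9, a scaffold protein that binds MET and AXL, rose by 1.86 with T3 in TRB cells (SE 0.375, edgeR adjusted p 0.00706), and by 1.21 with 11 libraries (adjusted p 4.05e-05). RANBP9 was also higher in TRB than in EV cells under T3 (1.71, SE 0.374, edgeR adjusted p 0.0214, and 1.06 with 11 libraries), as were CALU (1.12, adjusted p 0.0413) and CTGF (3.44, adjusted p 2.52e-05). These 3 were the calls among the 53 in that comparison (5.66%, against 6.68% of all tested genes), and their number was 1 without EV-T3 replicate 1 or 3, 7 without TRB-T3 replicate 1 or 3 and 11 without TRB-T3 replicate 2. CALU lost this call without any 1 of the EV or TRB-vehicle libraries (edgeR adjusted p up to 0.143), and RANBP9 lost it without EV-T3 replicate 1 or 3 (adjusted p up to 0.0884). AKT1, a central kinase downstream of TAM receptors, differed by -0.14 with 12 libraries (edgeR adjusted p 0.869) and by 0.39 with 11 (adjusted p 0.0333). In the other lists, of 2 ligands and bridging proteins, 6 scramblases and flippases, 3 phosphatidylserine receptors and 7 engulfment genes, 0 passed with 12 libraries. With 11 libraries ATP11A, a flippase that keeps phosphatidylserine inside the membrane, was higher with T3 in TRB cells (0.85, SE 0.0888, edgeR adjusted p 1.06e-05). In that fit CRK and LRP1 were also higher, and AGER, ABCA1 and TEAD4 lower.

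In EV cells 0 of the 53 genes passed with T3 in edgeR with 12 libraries. With 11 libraries FURIN was higher (0.69, SE 0.152, edgeR adjusted p 0.0211), and the galectin LGALS3 (-0.35, adjusted p 0.0348) and the engulfment adaptor GULP1 (-0.96, adjusted p 0.0479) were lower. That is 5.66% of the 53, against 7.33% of all genes. In vehicle 0 of the 53 differed between TRB and EV cells in edgeR with 12 or 11 libraries, while 10 did (5 higher, 5 lower) when only these groups were fitted and 2 with GC offsets on 11 libraries.

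**Figure D5:**
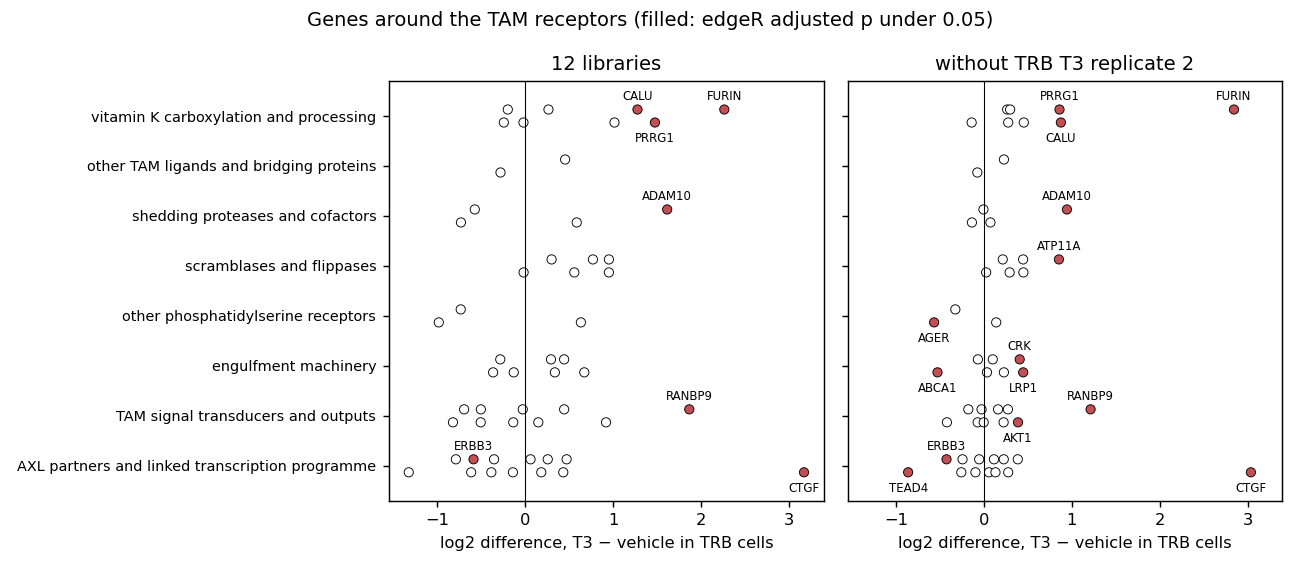
Log2 difference of T3 against vehicle in TRB cells for each tested gene of the 8 lists (points, filled where the edgeR adjusted p was under 0.05), with all 12 libraries (left) and without TRB-T3 replicate 2 (right). On the left 6 genes rose and 1 fell, with CTGF at 3.17 and FURIN at 2.26 the farthest to the right.

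The genes most like GAS6-AS1, GAS6 and AXL over the 12 libraries were taken as the 5 highest Pearson correlations of log2 CPM among the 12500 genes whose log2 CPM averaged 1 or more. These are descriptions, since the libraries share their groups and the GC trend. For GAS6-AS1 they were SLC31A2 (r = 0.98), DNMT3A, ARPIN, TIMP2 and KIF13B. TIMP2, an inhibitor of metalloproteinases, stood at a mean of 108.1 CPM in TRB-vehicle and 916.1 in TRB-T3. For GAS6 they were PIK3CD (r = 0.97), IGSF3, EPAS1, ECM1 and ACVR1B, of which PIK3CD, a catalytic subunit of PI3K, went from 1.69 to 13.6 CPM.

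For AXL the 5 were SPINK1 (r = 0.98), MTHFD1L, AKR1B10, YARS and PAK1. MTHFD1L, a mitochondrial enzyme of one-carbon metabolism, stood at 69.0 CPM in EV-vehicle, 45.4 in EV-T3, 77.5 in TRB-vehicle and 19.1 in TRB-T3, the order of AXL. AKR1B10, an aldo-keto reductase, stood at 98.3, 66.1, 130.3 and 42.4 CPM in these groups. Without TRB-T3 replicate 2 only 1 of the 5 genes was kept for each of the 3 members: SLC31A2, IGSF3 and AKR1B10. With GC offsets on 12 libraries 0 of 5 were kept for GAS6-AS1 and for AXL, and GAS6 was not fitted.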

How the data were processed

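The values used are raw read counts for gene symbols, 1 file per library, as deposited by the authors. Per the submitters' processing notes, CASAVA 1.7, STAR 2.7, HTSeq 0.10, DESeq2 and the build hg38 were involved, while the annotation and the strand setting are not given in the sources used here. A deposited table of normalized values with 11 library columns was not used. The 5 closing lines of each count file, for reads of no gene, entered neither library sizes nor tests.

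Groups and replicate numbers came from the titles. The fits used edgeR 4.0.16 under R 4.3.3: filterByExpr (minimum count 10, minimum total 15) left 14431 genes with 12 libraries and 14825 with 11, scaling was by trimmed mean of M-values, and a quasi-likelihood model had 1 coefficient for each of the 4 groups. Tests were two-sided with Benjamini-Hochberg adjustment over all tested genes at 0.05. CPM are counts per 1000000 after scaling, and per-kilobase values use the length of the union of a gene's GENCODE release 29 exons. GC offsets removed a spline trend (5 degrees of freedom) against GC content. Other alternatives were DESeq2 1.42.0, its size factors, no filter, a prior count of 2, fits of only the compared groups, replicate number as a block, and leaving out each library. The pathway counts under them were added after seeing the data.

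The text names the 6 members, genes of the 8 lists past the threshold (with the untested or unchanged ones needed to describe a list), the neighbours of GAS6 and the 5 genes most like a member. Further genes were chosen after their values were seen. The members and lists were chosen with earlier results of these data known. The fit was tested on simulated counts with the same spread for every gene and no GC trend or outlying library. That test therefore does not cover the departure of TRB-T3 replicate 2. Promoters and neighbours came from RefSeq (GRCh38.p14), and 29681 of 56832 symbols matched GENCODE directly and 883 through another symbol.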

Additional observations from a re-analysis of the deposited data

Results flagged for a closer look

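The T3 effect on AXL differed between the vectors. The interaction term, T3 effect in TRB cells minus T3 effect in EV cells, was -2.05 in log2 units (SE 0.273, adjusted p 0.00346 by edgeR), and every library of TRB-T3 lay below every library of EV-T3, groups that did not overlap for 26.3% of tested genes. Over 19 alternatives the term lay between -2.18 and -1.72 and passed in each, with adjusted p up to 0.0223. Replicate 2 of TRB-T3 stood at 1.80 CPM, beside 2.18 and 1.87 in replicates 1 and 3.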

How the results depend on the processing

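AXL kept its direction in all 5 comparisons and its calls for T3 in TRB cells and for the difference of T3 effects under every alternative run. For T3 in TRB cells 2128 genes and 1 member (AXL) passed, GAS6-AS1 not being tested. The genes were 634 with the compared groups alone, 5340 with GC offsets and 7069 with GC offsets on 11 libraries, and the members 2 without a filter, 2 with GC offsets and 3 with GC offsets on 11. Leaving out each library gave 1256 to 4938 genes and 1 to 2 members. For T3 in EV cells 33 genes and 0 members passed (881 genes at an unadjusted p under 0.05). The genes were 19 without a filter, 172 by DESeq2, 200 with the compared groups alone, 554 with GC offsets and 2269 with GC offsets on 11 libraries, and AXL was the 1 member called with GC offsets on 12 or 11. Leaving out each library gave 10 to 1087 genes and 0 to 1 member. For TRB against EV in vehicle 3 genes and 0 members passed. The genes were 8 by DESeq2, 1563 with the compared groups alone (AXL the 1 member), 7 with GC offsets and 128 with GC offsets on 11, and 1 to 11 with 0 to 0 members on leaving out each library. For TRB against EV under T3 964 genes and 1 member passed. The genes were 1905 by DESeq2, 32 with the compared groups alone, 3535 with GC offsets and 5204 with GC offsets on 11, and the members 2 without a filter, 0 with the compared groups alone and 2 with GC offsets on 11. Leaving out each library gave 414 to 2918 genes and 1 to 2 members. For the difference of T3 effects 374 genes and 1 member passed. The genes were 238 without a filter, 1022 by DESeq2, 2405 with GC offsets and 4311 with GC offsets on 11, and 136 to 2259 with 1 to 1 member on leaving out each library. The second member called was TYRO3 with GC offsets on 12 libraries and GAS6 in the other fits with 2, where it is tested because no filter is set or because it passes the filter through TRB-T3, so its calls are a description; both were called with GC offsets on 11 for T3 in TRB cells. The causes were not tested.

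Of the members' log2 differences, these turned sign. PROS1 for T3 in TRB cells was 0.61 with all libraries, -0.066 to 0.86 on leaving out each library, the lowest without TRB-T3 replicate 2, and -0.13 with GC offsets on 11 libraries, and with these offsets it was -0.12 for TRB against EV under T3 and -0.12 for the difference of T3 effects. For T3 in EV cells MERTK was -0.043 without a filter and -0.012 with GC offsets on 12 or 11, and TYRO3 was -0.12 and -0.15 with GC offsets on 12 and 11 and -0.14 to 0.29 on leaving out each library, the lowest without EV-T3 replicate 3. GAS6-AS1 for TRB against EV in vehicle was -1.34 to 3.22 on leaving out each library, the highest without EV-vehicle replicate 3, and 0.26 without TRB-vehicle replicate 1. Of the 53 pathway genes for T3 in TRB cells 7 passed, 11 by DESeq2, 1 with the compared groups alone and 19 with GC offsets.

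The replicate numbers did not pair the libraries in every comparison. For 7 of 12 libraries the best correlate in another group had the same number. Same-number correlations lay between -0.145 (T3 in TRB cells, replicate 3) and 0.728 (TRB against EV under T3, replicate 2, with 0.636 for replicate 3). Whether the numbers mark a batch was not tested. With the replicate block 18 genes passed for T3 in EV cells, the numbers for the other comparisons were within 1.5 times, and no member's call changed, but FURIN lost its call for T3 in TRB cells, and 6 pathway genes in place of 3 passed for TRB against EV under T3. The compared groups alone could not be fitted for the difference of T3 effects. Depth limits GAS6 and GAS6-AS1 outside TRB-T3, where 3 counts in a group are 0.0899 to 0.151 CPM.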

Other observations

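Among the marker lists, FN1, which encodes the matrix protein fibronectin, moved with T3 in both kinds of cell. It stood at 14.1, 16.5 and 13.6 CPM in EV-vehicle, at 66.2, 72 and 73.9 in EV-T3, at 10.2, 9.39 and 9.15 in TRB-vehicle and at 303.1, 146.8 and 274.8 in TRB-T3. The log2 difference was 4.66 in TRB cells (SE 0.279, edgeR adjusted p 4.01e-06) and 2.26 in EV cells (SE 0.253, adjusted p 0.00367). The latter missed the threshold without EV-vehicle replicate 1 or 3 (adjusted p up to 0.0696). The difference between these effects was 2.40 (SE 0.347, edgeR adjusted p 0.00575). Of the other mesenchymal markers CDH2 had no count, and VIM stood at a mean of 0.443 to 1.08 CPM.

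CD14, a myeloid receptor that also binds apoptotic cells, had 4, 4 and 5 counts in TRB-vehicle and 123, 1 and 78 in TRB-T3 (log2 difference 4.04, SE 0.912, edgeR adjusted p 0.0130). Its replicates were thus split like those of GAS6. It missed the threshold without TRB-vehicle replicate 1, 2 or 3 (edgeR adjusted p up to 0.0655). CD14 passed the count filter with the help of its high TRB-T3 libraries and was not fitted with the compared groups alone. Its call is therefore a description. The macrophage markers CD163 and TYROBP had no count, and PTPRC, CSF1R and FCER1G of the same list had at most 3 per library. The summed markers of endothelium and fibroblasts stood at 0 to 0.42 and 1.44 to 33.2 CPM, the latter almost all COL1A1.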
